A study of Mus musculus with 5 samples.

Results

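The genes described here are the enzymes that add methyl groups to lysine 4 of histone H3 (H3K4) and those that take them off, in mouse embryos at the 2-cell stage. They were taken from the deposited expression table by symbol. All 10 symbols were found among the 32285 genes of the table, of which 6 are writers (Kmt2a, Kmt2b, Kmt2c, Kmt2d, Setd1a and Setd1b) and 4 are erasers (Kdm5a, Kdm5b, Kdm1a and Kdm1b).

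The PNMC group held 3 libraries of embryos kept for 24 h in KSOM with PNMC at 25 nM, and the control group held 2 libraries of embryos kept in KSOM with an equal volume of DMSO. Eggs came from females of 6 to 9 weeks stimulated with 10 IU PMSG and 10 IU hCG, and were inseminated in vitro for about 6 h with sperm of males of 12 to 16 weeks. The labels spell out neither PNMC nor the strain, and give neither the number of embryos in a library nor whether libraries are separate cultures. P-values therefore reflect the spread among the 5 libraries alone, part of which may be technical. The values are the authors' normalised levels without a stated unit, called levels here, and their read depth is unknown.

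H3K4 methylation is laid down by SET-domain methyltransferases that work in COMPASS complexes, built around the shared subunits WDR5, RBBP5, ASH2L and DPY30. In mammals SETD1A and SETD1B are tied to trimethylation at active promoters, KMT2A and KMT2B to trimethylation at particular sets of promoters, and KMT2C and KMT2D to monomethylation at enhancers. KDM5A and KDM5B are JmjC-domain demethylases of the trimethyl and dimethyl forms, whereas KDM1A (LSD1) and KDM1B (LSD2) are flavin-dependent oxidases of the dimethyl and monomethyl forms. The mouse oocyte carries broad domains of trimethylated H3K4 that depend on KMT2B, and these domains are lost around the 2-cell stage in a step that needs KDM5A and KDM5B.

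The family was dominated by an eraser of the oocyte, Kdm1b, and its relative Kdm1a stood near the bottom, with the writer Kmt2a close to 0. The upstream sequences of these 3 genes are shown for that reason, so that the ends of the range of levels can be set side by side. Each is the stretch of 250 bases before the annotated start, 5′ to 3′ on the gene's strand, from RefSeq on build GRCm38.p6, which is not the build named for the expression table. Capitals mark every CG dinucleotide, the unit bound when unmethylated by the CXXC domains of CXXC1, KMT2A, KMT2B and KDM2B.
Kdm1b (chr13:47043249-47043498, plus strand): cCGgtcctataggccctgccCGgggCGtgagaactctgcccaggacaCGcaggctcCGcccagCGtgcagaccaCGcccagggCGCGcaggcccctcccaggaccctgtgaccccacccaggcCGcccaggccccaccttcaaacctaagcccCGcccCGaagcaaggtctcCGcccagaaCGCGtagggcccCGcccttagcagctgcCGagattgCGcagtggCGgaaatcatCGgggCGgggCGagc
Kdm1a (chr4:136602724-136602973, minus strand): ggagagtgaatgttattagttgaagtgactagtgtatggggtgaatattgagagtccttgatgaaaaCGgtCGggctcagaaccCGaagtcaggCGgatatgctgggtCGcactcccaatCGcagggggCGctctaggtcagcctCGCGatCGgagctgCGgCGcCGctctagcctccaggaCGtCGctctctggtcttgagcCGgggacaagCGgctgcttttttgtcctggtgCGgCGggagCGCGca
Kmt2a (chr9:44881290-44881539, minus strand): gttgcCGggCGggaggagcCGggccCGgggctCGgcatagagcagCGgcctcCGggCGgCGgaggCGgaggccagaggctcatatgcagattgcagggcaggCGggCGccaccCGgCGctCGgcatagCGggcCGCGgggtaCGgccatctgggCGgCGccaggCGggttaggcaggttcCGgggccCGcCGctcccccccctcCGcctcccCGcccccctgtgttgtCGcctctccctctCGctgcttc

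These windows held 22 CG dinucleotides for Kdm1b, 21 for Kdm1a and 29 for Kmt2a, against a median of 6 over all 32851 windows of that length. A window was at hand for 7 of the 10 genes, and their counts ran from 13 in Kdm5b to 48 in Kmt2c. Among those 7, the counts did not follow the order of the levels: Kdm1b and Kdm1a differed by a single CG. A CG is found in 92.1% of all windows. The letters GGGCGG, searched on both strands, occurred 6 times for Kdm1b, 4 times for Kmt2a and not at all for Kdm1a, and 32.7% of all windows held them. They occurred 12 times for Kmt2c, 4 for Kmt2d, 1 for Kdm5b and 0 for Setd1a, so these counts did not follow the levels either. These matches describe letters only.

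Levels can be compared between genes only if they are scaled by length. The sum over genes of level times transcript length in kb was between 599166 and 620475 with the median transcript of each gene. It was between 1167553 and 1212657 with the longest. Values in FPKM would sum to the scaling constant of that unit, which lies between these totals. The level also did not climb with length: among genes with a mean of at least 1, its median was 9.21 in the shortest of 4 length classes and 6.19 in the longest. Levels of the writers and erasers are therefore set side by side below on the deposited scale, with 2 reservations. Its unit is not stated, and the cause of the lower median in the longest class was not tested, so some dependence on length may remain. Exon lengths of the family ran from 5179 bases in Kdm1a to 20291 in Kmt2c.

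**Figure D1:**
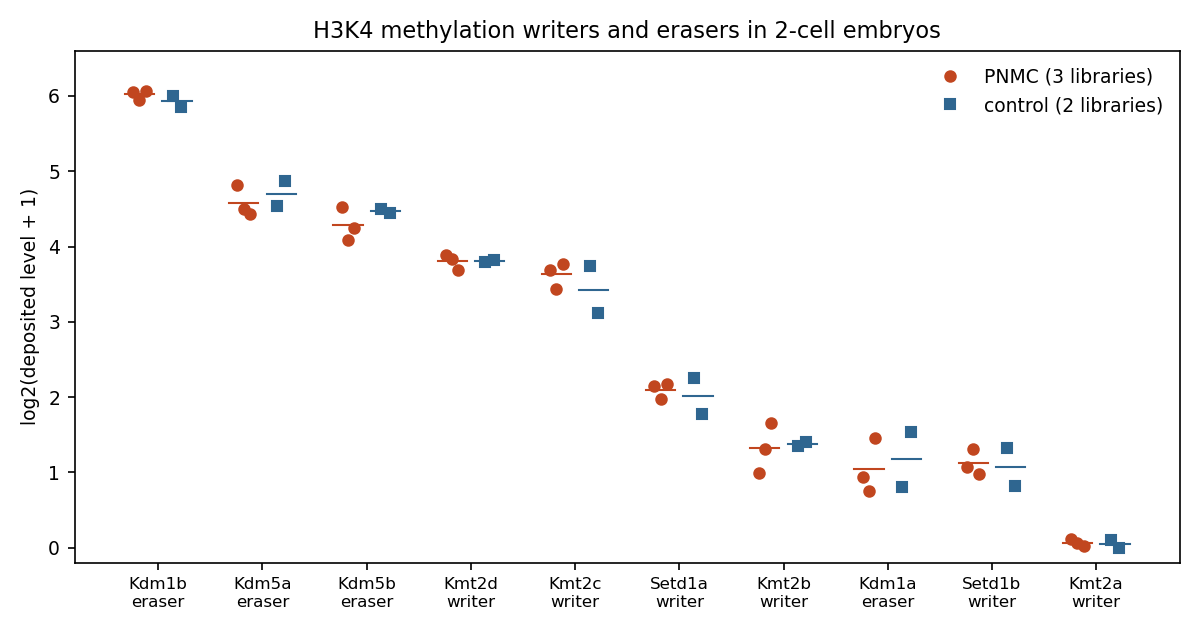
Level of each gene in every library, on the log2(level + 1) scale, ordered by the mean over the 5 libraries; circles are the 3 PNMC libraries, squares the 2 control libraries and short lines the group means. Kdm1b stood highest and Kmt2a lowest in both groups, and PNMC and control values overlapped in all 10 genes.

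Kdm1b, which in the mouse acts in growing oocytes and is needed there to set DNA methylation at imprinted genes, had the highest level of the family in every library. Its level was 65.6, 60.5 and 65.8 in PNMC libraries 1, 2 and 3, against 63.1 and 56.7 in control libraries 1 and 2. Control library 2 was the lowest and PNMC library 3 the highest, and control library 1 lay within the PNMC range. The mean was 63.98 ± 2.98 (SD, n = 3) with PNMC and 59.9 ± 4.52 (SD, n = 2) in controls, which is a difference of 0.09 on the log2(level + 1) scale (SE 0.159; adjusted p = 0.993 by limma). In these bulk libraries a different level in each embryo cannot be told apart from a different share of embryos that carry the transcript. Its mean level was higher than that of 94.1% of the genes detected in any library. Exons of Kdm1b share 505 bases, or 9.19% of its exon length, with Dek on the opposite strand, and Smart-seq2 libraries keep no strand. Dek had a level of 162, 182.4 and 180.1 in the PNMC libraries, against 200.9 and 158 in the controls, so reads of that stretch cannot be assigned to either gene.

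Kdm1a, the other flavin-dependent eraser, whose maternal supply mouse embryos need to develop past the 2-cell stage, was close to the filter's minimum level of 1. Its level was 0.916, 0.682 and 1.74 in the PNMC libraries, against 0.748 and 1.90 in the controls. PNMC library 3 and control library 2 were high and the other libraries low, so the split did not follow the exposure. The log2 change was -0.12 (SE 0.429, limma adjusted p = 0.993), and its 95% interval from -1.05 to 0.80 was the widest of the family. Kdm1b exceeded Kdm1a 71.6, 88.8 and 37.8 times in the PNMC libraries, against 84.4 and 29.8 times in the controls, where the coefficient of variation over the 5 libraries was 48.4% for Kdm1a and 6.10% for Kdm1b.

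Kdm5a and Kdm5b, the erasers of the trimethyl mark, ranked just below Kdm1b. Kdm5a had a level of 27.1, 21.6 and 20.5 in the PNMC libraries, against 22.2 and 28.1 in the controls. Both groups held a high and a low library, and the log2 change was -0.12 (SE 0.215, limma adjusted p = 0.993). Kdm5b had a level of 22.0, 16.0 and 17.9 in the PNMC libraries, against 21.6 and 20.7 in the controls. PNMC libraries 2 and 3 lay below both controls and PNMC library 1 above them, so the groups overlapped. The mean of Kdm5b was 18.7 ± 3.05 (SD, n = 3) with PNMC and 21.2 ± 0.640 (SD, n = 2) in controls. Its log2 change was -0.19 (SE 0.218, limma adjusted p = 0.993), with the smallest unadjusted p of the 9 genes tested. The 95% interval ran from -0.65 to 0.28, which on the log2(level + 1) scale corresponds to a ratio between 0.635 and 1.22. The ratio of Kdm5a to Kdm5b was 1.23, 1.34 and 1.15 in the PNMC libraries, against 1.03 and 1.36 in the controls, and Kdm5a was the higher of the pair in 5 of 5 libraries.

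Among the writers, the enhancer methyltransferases Kmt2c and Kmt2d made up most of the signal. Kmt2d had a level of 13.7, 13.3 and 11.9 in the PNMC libraries, against 12.8 and 13.1 in the controls, and was the steadiest gene of the family, with a coefficient of variation of 5.44% over the 5 libraries. Its mean was 12.98 ± 0.989 (SD, n = 3) with PNMC and 12.98 ± 0.196 (SD, n = 2) in controls. The log2 change was -0.00269 (SE 0.229, 95% interval -0.49 to 0.49, limma adjusted p = 0.998), and it was 0.046 with quantile normalisation and 0.078 with median scaling. Kmt2c had a level of 11.9, 9.86 and 12.6 in the PNMC libraries, against 12.4 and 7.67 in the controls. Control library 2 stood apart at the low end, and control library 1 was inside the PNMC range. The log2 change of Kmt2c, the largest in size of the family at 0.20 (SE 0.268, limma adjusted p = 0.993), was -0.11 without control library 2.

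The promoter methyltransferases were low. Setd1a had a level of 3.43, 2.93 and 3.52 in the PNMC libraries, against 3.75 and 2.43 in the controls, and Setd1b had 1.11, 1.48 and 0.972 in the PNMC libraries, against 1.51 and 0.757 in the controls. In both genes control library 1 was the highest and control library 2 the lowest of the 5 libraries, with all PNMC values between them. The log2 change was 0.09 for Setd1a (SE 0.334) and 0.05 for Setd1b (SE 0.403), with a limma adjusted p = 0.993 for each. In GENCODE M21, 51.8% of the exon length of Setd1a is also part of Gm49388 on the same strand, a symbol not found in the expression table. The sources used here do not say how reads were divided there, and the level of Setd1a is uncertain for that reason.

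Kmt2b, which mouse oocytes need for their broad trimethylated domains, had a level of 0.992, 1.48 and 2.14 in the PNMC libraries, against 1.55 and 1.65 in the controls. Both controls lay inside the PNMC range. The log2 change was -0.06 (SE 0.386, limma adjusted p = 0.993), and it was 0.035 with quantile normalisation and 0.10 without PNMC library 1. Kmt2a, the closest relative of Kmt2b and known for its role in blood development and leukaemia, was listed at 0.0824, 0.0408 and 0.0144 in the PNMC libraries, against 0.0719 and 0 in the controls. It reached a level of 1 in none of the 5 libraries, so it did not pass the filter and was not tested, and 90.6% of detected genes had a higher mean.

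By mean level the order was Kdm1b, Kdm5a, Kdm5b, Kmt2d, Kmt2c, Setd1a, Kmt2b, Kdm1a, Setd1b and Kmt2a. The ranges over the 5 libraries did not overlap between Kdm1b and Kdm5a (means 2.61 times apart), Kdm5b and Kmt2d (1.51 times), Kmt2c and Setd1a (3.39 times), Setd1a and Kmt2b (2.06 times) or Setd1b and Kmt2a (27.8 times). The ranges did overlap between Kdm5a and Kdm5b, Kmt2d and Kmt2c, Kmt2b and Kdm1a, and Kdm1a and Setd1b. Compared within libraries, Kdm5a was above Kdm5b in 5 of 5. Kmt2d was above Kmt2c, and Kmt2b above Kdm1a, in 4 of 5 each, and Kdm1a was above Setd1b in 2 of 5. Kmt2a had the highest coefficient of variation over the libraries, 84.8%, followed by Kdm1a at 48.4%, at levels close to 0.

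**Figure D2:**
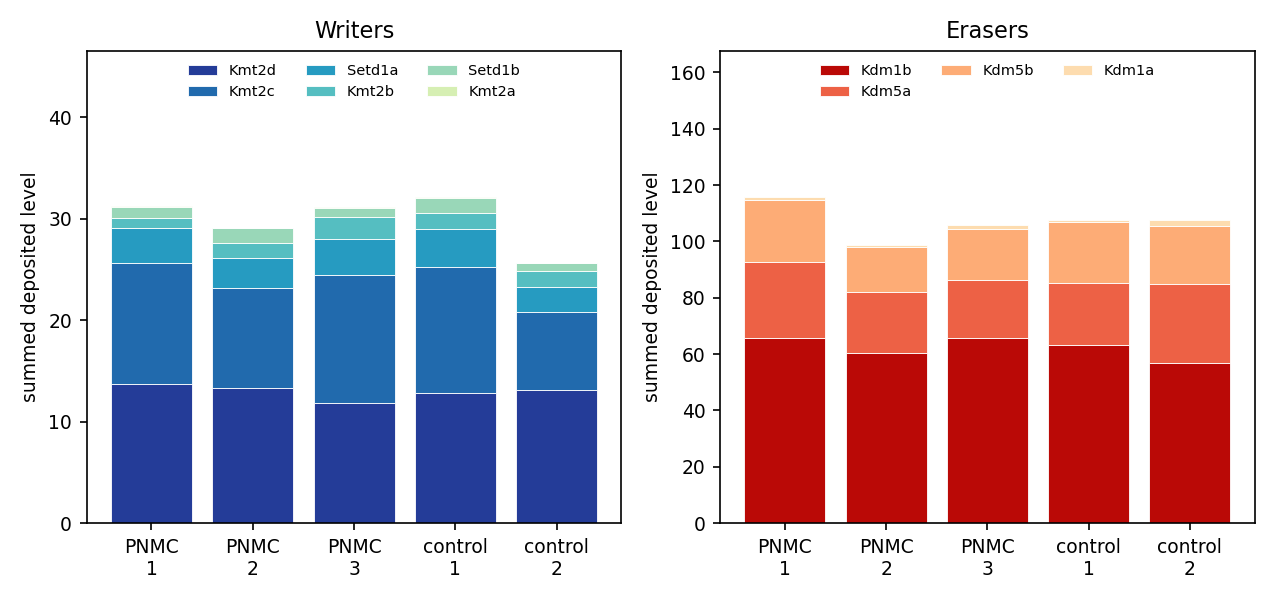
Summed level of the 6 writers (left) and the 4 erasers (right) in each library, stacked by gene, with bars starting at 0 and separate vertical scales. Kdm1b filled between 52.8% and 62.1% of the eraser sum, and Kmt2c with Kmt2d between 78.6% and 82.0% of the writer sum.

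Erasers outweighed writers in summed level in every library. The writers summed to 31.3, 29.1 and 31.1 in the PNMC libraries, against 32.1 and 25.6 in the controls. The erasers summed to 115.6, 98.8 and 106 in the PNMC libraries, against 107.7 and 107.5 in the controls. The ratio of erasers to writers was 3.70, 3.39 and 3.41 in the PNMC libraries, against 3.35 and 4.19 in the controls, so the 2 controls enclosed all 3 PNMC libraries. Kmt2c and Kmt2d together made 80.1 ± 1.75% of the writer sum with PNMC (SD, n = 3) and 79.8 ± 1.80% in controls (SD, n = 2).

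The exposure comparison asked whether any of these enzymes differed between PNMC and DMSO embryos. Of the 9 genes tested with limma, 0 passed an adjusted p under 0.05, where 0% of all 12734 tested genes passed. At an unadjusted p under 0.05 the count was also 0 of 9, against 4.99% of all tested genes. The values of the 3 PNMC libraries lay entirely on one side of both controls in 0 of 9 genes, against 19.9% of all tested genes. With 9 genes these shares are too coarse to set the family apart from the rest. Mean log2 values were higher with PNMC in 4 and lower in 5 genes (56.9% of all tested genes were lower), and the median log2 change was -0.00269, beside -0.05 over all tested genes. The 95% interval lay within 1 log2 unit in either direction for 8 of the 9 genes, all but Kdm1a, against 61.4% of all tested genes. That holds on the log2(level + 1) scale, which compresses changes of genes near a level of 1. With a pseudocount of 0.1, the SE was 0.726 for Setd1b and 0.605 for Kmt2b, against 0.403 and 0.386 in the main fit. For such low genes the intervals therefore do not bound the change in level to 1 log2 unit. A change within the 95% intervals was not excluded with 5 libraries, and the p-values do not show that levels were equal.

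**Figure D3:**
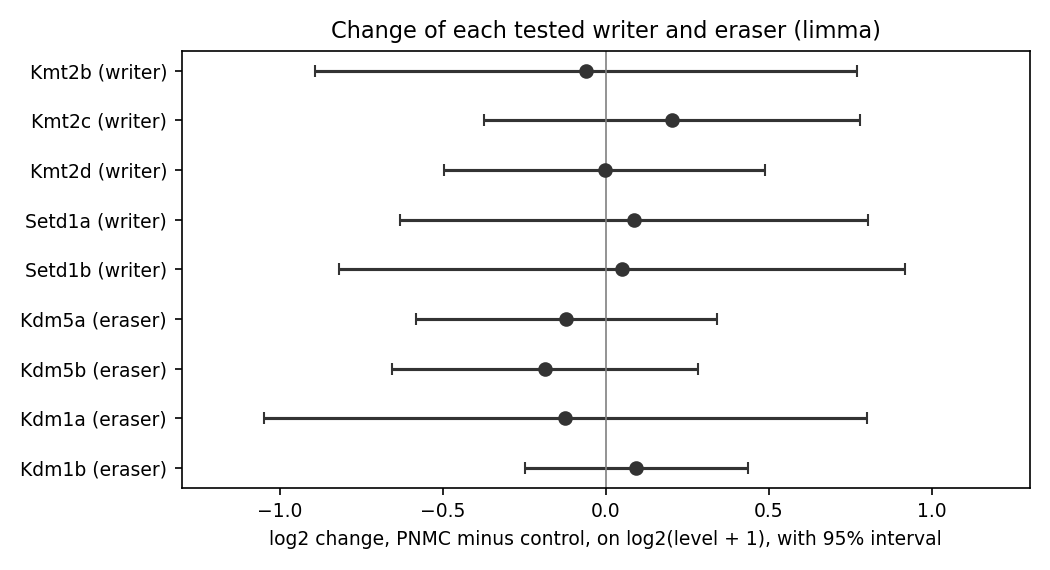
Log2 change of each tested gene, PNMC minus control, on the log2(level + 1) scale; points are limma estimates and bars 95% intervals. Every interval crosses 0, and the bars are shortest for Kdm1b and longest for Kdm1a, at -1.05 to 0.80.

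The 2 control libraries differed from each other in several of these genes. Of the 9 tested genes, control library 2 held the lowest value in 4 (Kdm1b, Kmt2c, Setd1a and Setd1b) and the highest in 2 (Kdm5a and Kdm1a). That library also listed 18595 genes above 0, against 17408 to 17635 in the other 4, and the part of this in the values above was not tested. Without control library 2, the log2 change had the other sign in 5 of the 8 genes that still passed the filter. Pearson correlations of log2 values between libraries over all tested genes lay between 0.959 and 0.964. Transcripts of the 2-cell programme were present at a summed level of 1003 to 1138 with PNMC and 1046 to 1157 in controls over 10 genes, and 10 of 10 oocyte genes were detected. Of 12 cumulus cell markers, 5 (Amh, Foxl2, Ptx3, Inhba and Pgr) were at 0 in all libraries, and the summed level was 29.2 to 33.04 with PNMC and 27.5 to 34.9 in controls, with Nr5a2 making 76.8% to 84.4% of that sum. Of 8 sperm markers, Prm1, Tnp2 and Smcp were at 0 in all libraries and 3 reached a level of 1. Their summed level was 128 to 149.9 with PNMC and 129 to 139.7 in controls, of which Odf2 made 95.4% to 97.0%. The cumulus and sperm sums are thus mostly Nr5a2 and Odf2, and were not used to estimate cumulus or sperm RNA. The summed level of 6 blood markers was 5.15 to 10.2 with PNMC and 8.31 to 12.9 in controls.

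**Figure D4:**
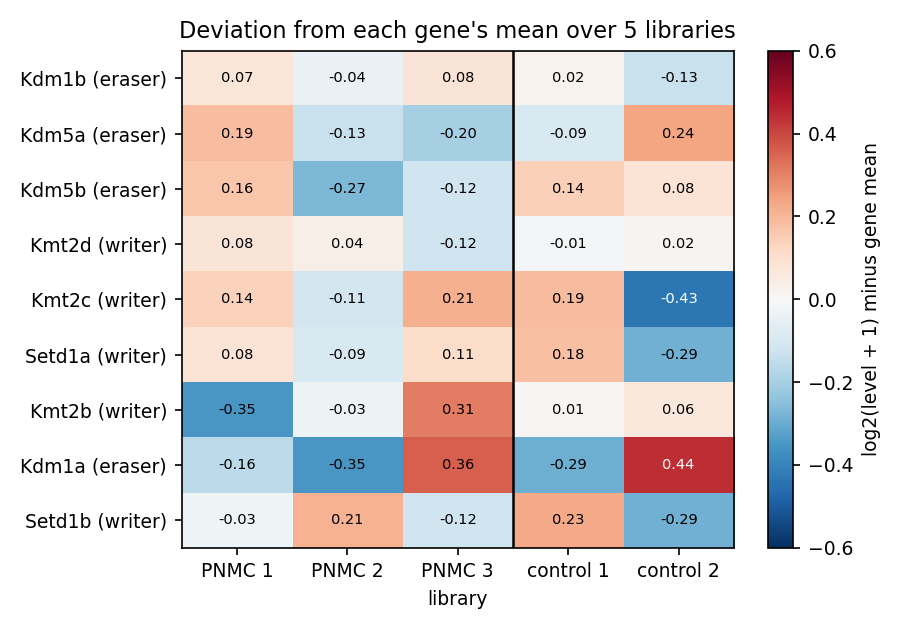
Deviation of each tested gene from its own mean over the 5 libraries, on the log2(level + 1) scale, with PNMC libraries left of the line and controls right of it. Control library 2 has both the lowest entry, -0.43 for Kmt2c, and the highest, 0.44 for Kdm1a.

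The proteins these enzymes work with were followed in a list of 49 genes, of which 44 were tested and 1, the muscle gene Smyd1, was at 0 in every library. In the list, 0 genes passed the adjusted threshold, 2 passed the unadjusted one (4.55%, against 4.99% of all tested genes) and 9 had no overlap between groups (20.5%, against 19.9%). Of those 9, the PNMC values were higher in 1 and lower in 8. That split by direction was not counted over all tested genes, so it is not read as a trait of the list. By mean log2 change, 56.8% of the list was lower with PNMC, against 56.9% of all tested genes. The median log2 change of the list was -0.02, beside -0.05 over all tested genes. Both genes under the unadjusted threshold had lower values with PNMC (3.27% of all tested genes) and were named after their values were seen. Phf21a, a subunit of KDM1A complexes that binds unmethylated H3K4, had a level of 5.78, 5.69 and 4.17 in the PNMC libraries, against 8.12 and 9.11 in the controls (limma adjusted p = 0.974). Zmynd11, better known as a reader of H3K36 methylation, had a level of 3.41, 4.75 and 7.40 in the PNMC libraries, against 8.56 and 8.84 in the controls (limma adjusted p = 0.986). All PNMC values lay below both controls in these 2 genes. The count of partners under the unadjusted threshold was 0 with quantile normalisation. With a minimum level of 10 it was 0 as well, but Phf21a and Zmynd11 stayed below 10 in every library. That filter removed both and left 23 partners, so it did not retest them. Under the other alternatives that kept both controls the count was 1 or 2.

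Of the 4 core subunits, Dpy30 and Wdr5 were the abundant ones. Dpy30, which stimulates the methyltransferases through ASH2L, had a level of 240.1, 258 and 263 in the PNMC libraries, against 247 and 277.6 in the controls. Wdr5, the scaffold that contacts the writers, had 77.2, 67.6 and 71.1 in the PNMC libraries, against 72.8 and 69.7 in the controls. Their log2 changes were -0.04 (SE 0.121) and 0.01 (SE 0.154), with limma adjusted p of 0.993 and 0.996. Ash2l and Rbbp5 were between 7.74 and 14.8 in all libraries, a range that overlapped those of Kmt2c and Kmt2d.

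The named partners of the SETD1 and KMT2 complexes overlapped between the groups. Among the SETD1 partners not named by level, Hcfc2 and Bod1l had all PNMC values below both controls, as did Rcor1 among the KDM1 partners, each with a limma adjusted p of 0.993. Kdm6a, the H3K27 demethylase of the KMT2C and KMT2D complexes, averaged 65.7 ± 4.89 with PNMC (SD, n = 3) and 65.7 ± 5.08 in controls (SD, n = 2), and the coactivator Ncoa6 averaged 3.07 ± 0.535 with PNMC and 3.15 ± 0.548 in controls. Psip1, the chromatin tether of KMT2A with menin, averaged 29.6 ± 2.15 with PNMC and 29.6 ± 1.15 in controls, at levels far above Kmt2a itself. Men1, which encodes menin, averaged 8.41 ± 2.90 with PNMC and 7.58 ± 2.56 in controls. Cxxc1, the CpG-binding subunit of SETD1 complexes, averaged 14.1 ± 3.44 with PNMC and 11.5 ± 1.64 in controls, and the host cell factor Hcfc1 averaged 7.37 ± 1.37 with PNMC and 9.21 ± 2.95 in controls.

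Among other enzymes, the writer Smyd3 averaged 16.1 ± 3.74 with PNMC and 18.3 ± 5.46 in controls. The meiotic writer Prdm9 averaged 5.46 ± 2.01 with PNMC and 4.93 ± 0.992 in controls. Kdm2b, a CXXC demethylase, averaged 34.6 ± 4.66 with PNMC and 34.3 ± 1.38 in controls, and Kdm5c, an X-linked relative of Kdm5a, averaged 8.20 ± 2.34 with PNMC and 8.32 ± 3.34 in controls. The deacetylase Hdac1, a partner of KDM1A, averaged 137 ± 11.3 with PNMC and 144 ± 41.02 in controls. Glyr1, the nucleosome-binding cofactor of KDM1B, had 30.7, 31.9 and 30.8 in the PNMC libraries, against 35.2 and 34.6 in the controls. All PNMC values of Glyr1 lay below both controls, and the log2 change was -0.16 (SE 0.180; adjusted p = 0.993 by limma).

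The most abundant reader was Spin1, a spindlin that binds trimethylated H3K4 and is abundant in oocytes. Its level was 3403, 3408 and 3625 in the PNMC libraries, against 3217 and 3261 in the controls, which differ by 0.10 on the log2(level + 1) scale (SE 0.0747; adjusted p = 0.993 by limma). All PNMC values of Spin1 lay above both controls. Among the readers not named by level, Taf3, Phf8 and Zmynd11 had all PNMC values below both controls. Ing3, a reader in the NuA4 acetyltransferase complex, averaged 100.4 ± 4.05 with PNMC and 101.3 ± 22.05 in controls.

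**Figure D5:**
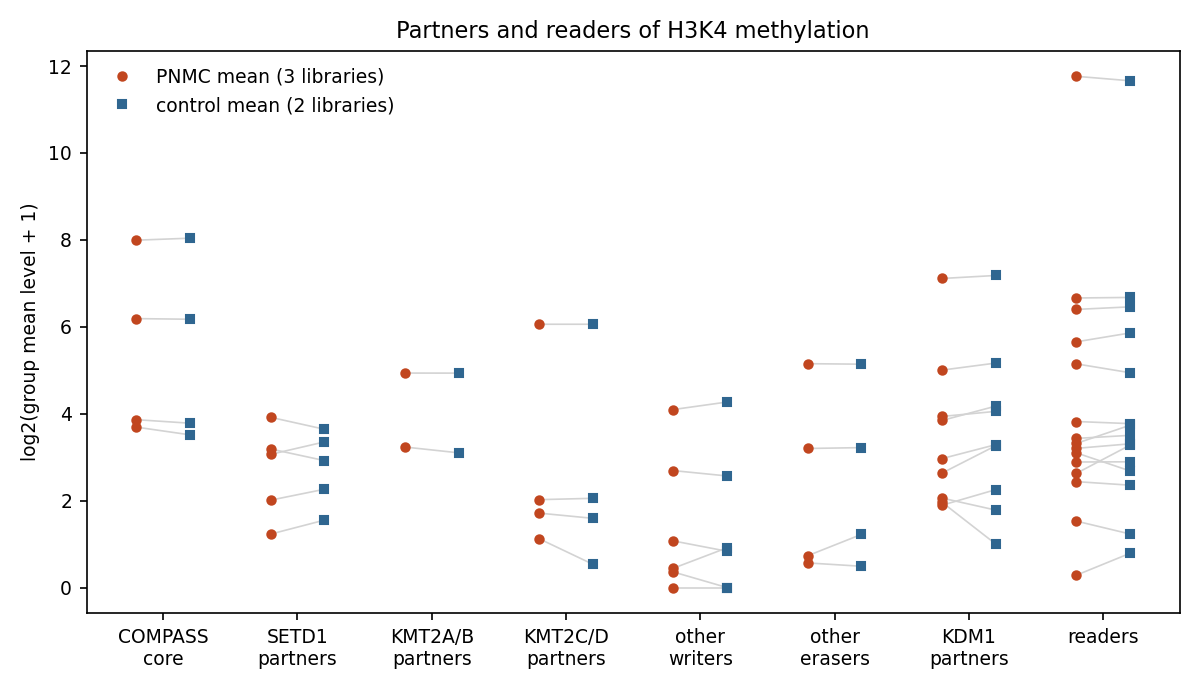
Group mean levels of the 49 partners and readers by role, on the log2(mean level + 1) scale; circles are means of 3 PNMC libraries, squares means of 2 control libraries, and a grey line joins the means of a gene. Spin1 is the isolated point at the top of the readers, and Dpy30 is the highest of the core subunits.

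The likeness of patterns over the 5 libraries was measured for Kdm5b and Kdm1b as the Euclidean distance between centred log2(level + 1) values, among the 3543 other genes averaging 20 or more. Nearest to Kdm5b were Xrcc3 (distance 0.0888), Copz1 (0.0956) and Rad52 (0.105). Xrcc3 had a level of 32.4, 23.0 and 25.9 in the PNMC libraries, against 29.6 and 30.7 in the controls. Nearest to Kdm1b were Zfp951 (0.0365), Arhgap11a (0.0434) and Pcbp3 (0.0475). Zfp951 had a level of 151.04, 139 and 149.7 in the PNMC libraries, against 143 and 133 in the controls. Such a likeness over 5 libraries of 2 groups is a description of these libraries.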

How the data were processed

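Smart-seq2 libraries were made from TRIzol-extracted total RNA of 2-cell embryos, per the labels' protocols. Build GRCm39 and the tools DESeq2 1.16.1, HTSeq, HISAT2 2.0.5 and Trimmomatic are named, per the submitters' processing notes. No source used here gives the annotation or the tool behind the values. A single table of normalised signal per gene was deposited, fractional and without a stated unit, so no count test was run.

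Columns were matched to samples by title. Genes with a level of at least 1 in at least 2 of 5 libraries (12734, 19551 removed) were compared on log2(level + 1) with limma 3.58.1 in R 4.3.3 (trend and robust variances, no covariate), adjusted by Benjamini-Hochberg over all tested genes at 0.05. Fold changes on that scale understate changes of low genes. The procedure was tested on simulated data, in which every placed change was larger than any estimated for the family. Recovery of changes as small as those was therefore not tested. Changes were placed there only in genes above a minimum mean level that Kdm1a and the writers did not reach, so recovery at their levels was not tested. Of the tests planned for counts or for normalised values, the one for normalised values was used.

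The members and lists were chosen with earlier results of these data known. Named partners are the 2 highest of each role. GENCODE M21 (31413 of 32285 symbols found) gave lengths and overlaps only. Alternatives covered the pseudocount, filter, scaling, variance model, left-out libraries and the replicate number as a block.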

Additional observations from a re-analysis of the deposited data

How the results depend on the processing

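No gene of the family passed the adjusted threshold under any of the 12 alternatives, and 89 of 102 alternative log2 changes kept their sign. The sign changed with quantile normalisation for Kmt2b (0.035) and Kmt2d (0.046), and with median scaling for Kmt2d (0.078). Leaving out 1 library at a time gave log2 changes from -0.23 to 0.10 for Kmt2b, -0.11 to 0.52 for Kmt2c, -0.043 to 0.056 for Kmt2d, -0.15 to 0.32 for Setd1a, -0.21 to 0.31 for Setd1b, -0.29 to 0.045 for Kdm5a and -0.49 to 0.025 for Kdm1a. The sign was the same under all alternatives for Kdm5b (-0.30 to -0.09) and Kdm1b (0.02 to 0.18). Over all genes, between 0 and 1 passed with 1 library left out, the 1 without PNMC library 1. The cause of these differences was not tested. The replicate numbers are shared by PNMC and control libraries 1 and 2 only, and the labels do not tie them to a litter or day. Deviations of same-numbered libraries from their group means correlated at -0.06 and -0.04. With 2 controls, their deviations mirror each other. These correlations are therefore not separate checks and do not settle whether libraries were paired. With the number as a replicate block, 0 genes of the family passed and Kmt2d changed sign (0.056). Kmt2a gave no value except without a filter, Kdm1a gave none without PNMC library 3 or without control library 2, and with a minimum of 10 only 5 genes of the family (the 3 erasers other than Kdm1a, Kmt2c and Kmt2d) gave one. The unknown depth and 2 controls limit what can be seen in genes near a level of 1.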
